A study of Mus musculus with 8 samples.

Results

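The gene set described here holds 31 mouse genes of cholesterol synthesis, transport and efflux, taken from a named list and found in the deposited table by symbol, out of 29079 genes in all. They comprise 8 enzymes of the mevalonate arm, 11 enzymes of the sterol arm, 5 regulators of the sterol response, 4 genes of uptake, transport and efflux, and 3 fatty acid enzymes under the same control. All 31 passed the filter on low counts, which left 14923 genes tested. The cells were MC38, a mouse colon adenocarcinoma line, profiled by mRNA sequencing in 4 groups with 2 libraries each. The Piezo2 knockout (KO) line was edited with a single guide RNA against Piezo2, a mechanically gated cation channel, and the line called wild type (WT) carried a CRISPR control. Each line was either irradiated with a single X-ray dose of 30 Gy or left non-irradiated, and RNA was taken 60 h later. The labels do not say whether the KO line is a clone or a pool, or whether the libraries of a group came from separate cultures, so p-values measure only the spread between these libraries, which may be technical.

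Cholesterol is built from acetyl-CoA through mevalonate to isoprenoid diphosphates, and then through squalene and lanosterol to the sterol itself. When sterol in the endoplasmic reticulum is low, the escort protein SCAP carries SREBP transcription factors to the Golgi, where they are cut and released to switch on the synthesis genes, while INSIG proteins hold the complex back when sterol is plentiful. Excess sterol is sensed as oxysterols by LXR receptors, which switch on export pumps such as ABCA1 and ABCG1.

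Promoters were read to show which of these genes carry the short motifs through which that control is known to act. RefSeq promoter windows, running from 250 bases before to 50 bases after a gene's start on GRCm38.p6, were found for 23 of the 31 members (31 windows). The windows were searched on both strands for 3 motifs, and matches of different motifs did not overlap in the bases printed below. TCACNCCAC, a core of the sterol regulatory element, matched in 1 member, Hmgcs1, against 1.44 percent of the 27025 genes with a window. Other forms of the element and bases outside the windows were not searched, so a gene without a match may still hold one. CCAAT, bound by NF-Y, which acts beside SREBP, matched in 20 of the 23 member genes, against 41.1 percent of those genes. An exact form of the direct repeat bound by LXR matched in 0 of the 23, against 0.0148 percent of those genes. So few genes hold this form that 0 matches cannot set the members apart, and other forms were not searched. The sequences below are the 250 bases before the start, 5′ to 3′ on the gene's own strand. They were chosen for the motif match in Hmgcs1 and for called KO effects in the 4 other genes, and capitals mark matches to TCACNCCAC or to CCAAT, read as ATTGG where the match lies on the opposite strand. They lie at chr13:119690101-119690350 (plus strand, Hmgcs1), chr19:6067851-6068100 (minus strand, Tm7sf2), chr5:28071162-28071411 (plus strand, Insig1), chr5:4104698-4104947 (minus strand, Cyp51) and chr17:12960726-12960975 (minus strand, Acat2).
Hmgcs1: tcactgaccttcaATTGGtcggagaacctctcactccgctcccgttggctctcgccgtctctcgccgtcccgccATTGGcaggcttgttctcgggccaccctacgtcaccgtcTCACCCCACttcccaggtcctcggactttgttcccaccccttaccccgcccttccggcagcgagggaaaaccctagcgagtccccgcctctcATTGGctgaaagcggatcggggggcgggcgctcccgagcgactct
Tm7sf2: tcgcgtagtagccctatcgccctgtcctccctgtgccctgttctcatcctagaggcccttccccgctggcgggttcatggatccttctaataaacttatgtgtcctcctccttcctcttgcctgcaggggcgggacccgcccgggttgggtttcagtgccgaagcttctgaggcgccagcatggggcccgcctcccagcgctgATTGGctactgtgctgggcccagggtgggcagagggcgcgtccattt
Insig1: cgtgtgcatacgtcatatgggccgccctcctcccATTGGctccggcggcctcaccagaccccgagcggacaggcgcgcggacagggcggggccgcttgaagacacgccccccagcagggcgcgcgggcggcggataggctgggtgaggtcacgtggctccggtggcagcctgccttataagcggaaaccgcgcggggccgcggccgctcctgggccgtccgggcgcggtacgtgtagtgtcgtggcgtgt
Cyp51: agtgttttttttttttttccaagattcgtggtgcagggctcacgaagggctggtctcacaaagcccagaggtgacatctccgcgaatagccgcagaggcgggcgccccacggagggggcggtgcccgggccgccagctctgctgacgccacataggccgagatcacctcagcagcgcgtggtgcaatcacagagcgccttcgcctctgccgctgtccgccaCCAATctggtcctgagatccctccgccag
Acat2: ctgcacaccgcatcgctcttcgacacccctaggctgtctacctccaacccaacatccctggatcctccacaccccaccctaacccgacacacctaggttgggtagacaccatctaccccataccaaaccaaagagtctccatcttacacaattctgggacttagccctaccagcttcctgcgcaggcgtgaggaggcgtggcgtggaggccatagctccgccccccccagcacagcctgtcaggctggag
The Hmgcs1 window held the sterol element core centred 132 bases before the start, with a CCAAT match centred on each side of it at -174 and -42 and another at -234. Tm7sf2, Insig1 and Cyp51 each held 1 CCAAT match, and Acat2 held neither motif in these bases.

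In the gene annotation Cyp51, Fdft1, Ggps1, Mvd, Npc1 and Srebf1 overlap a protein-coding gene on the opposite strand, Hmgcs1 and Lss an antisense gene, and Fdps and Tm7sf2 a protein-coding gene on their own strand, so their counts are uncertain. Levels are given as counts per M of a library's total counts (CPM), and library totals ran from 10971004 to 19887180. Piezo2 itself was at 0.464 and 0.693 CPM in irradiated KO libraries and at 0 and 0.0503 CPM in non-irradiated KO libraries, against 0.221 and 0.523 CPM in irradiated WT and 0 in both non-irradiated WT libraries. These are at most 12 reads, so the Piezo2 counts do not check the knockout. The epithelial adhesion gene Cdh1 was at 38.1 to 79.3 CPM, while the keratin Krt8 did not exceed 1.33 CPM in any library, and 3 of 7 epithelial markers never exceeded 3 reads. In bulk RNA, fewer cells of a type and less RNA per cell cannot be told apart. The summed level of 10 macrophage markers was 82.2 and 72.1 CPM in irradiated KO and 17.7 and 19.2 CPM in non-irradiated KO, against 46.5 and 46.4 CPM in irradiated WT and 9.55 and 9.26 CPM in non-irradiated WT. Cd68 and Cd14 made up most of it, 5 of the 10 markers never exceeded 3 reads, and C1qa had 1 read in all. The sum of 8 fibroblast markers, led by Col1a2 and Col3a1, was 2626 and 2945 CPM in irradiated KO and 1553 and 1651 CPM in non-irradiated KO, against 1663 and 1843 CPM in irradiated WT and 1122 and 1238 CPM in non-irradiated WT. The sum of 6 T and NK cell markers did not exceed 0.581 CPM. The marker sums thus moved with both irradiation and genotype, and their part in the results below was not tested.

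Without irradiation, cholesterol genes were higher in KO than in WT through most of the pathway. By the edgeR quasi-likelihood test with Benjamini-Hochberg adjustment, at an adjusted p under 0.05, 16 of the 31 members were higher in KO, where 10.4 percent of all 14923 genes tested were. The called genes were 5 of 8 in the mevalonate arm, 8 of 11 in the sterol arm, the regulator Insig1, the sterol carrier Stard4 and the desaturase Scd1. Members called lower numbered 0 of 31 (where 9.49 percent of all genes were). In addition, 0 were lower at an unadjusted p under 0.05, where 17 percent were, and 0 by DESeq2, where 8.26 percent were. The members' median log2 KO effect was 0.45, beside -0.01 for all genes tested, and 29 of 31 values were positive. Both KO libraries were above both WT libraries in 23 of 31 members, where 28.8 percent of all genes showed this. With the replicate number as a block, 25 members were higher, where 21.4 percent of all genes were.

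After irradiation the KO and WT lines differed in fewer of these genes. Of the 31 members, 6 were higher in KO, where 13.3 percent of all genes were, and Scd2 alone was lower, where 11.4 percent were. The 6 were Fdft1, Sqle, Tm7sf2 and Dhcr7 of the sterol arm, with Insig1 and Stard4, and all 6 were also among the 16 called without irradiation. The share of all genes called higher in both states was not counted. The members' median was 0.18, beside -0.01 for all genes. Both irradiated KO libraries were above both irradiated WT libraries in 14 members, where 30.3 percent of all genes showed this, and below them in 2, where 32 percent did. The block raised the counts to 18 higher and 3 lower, where 25.2 percent of all genes were called in each direction.

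**Figure D1:**
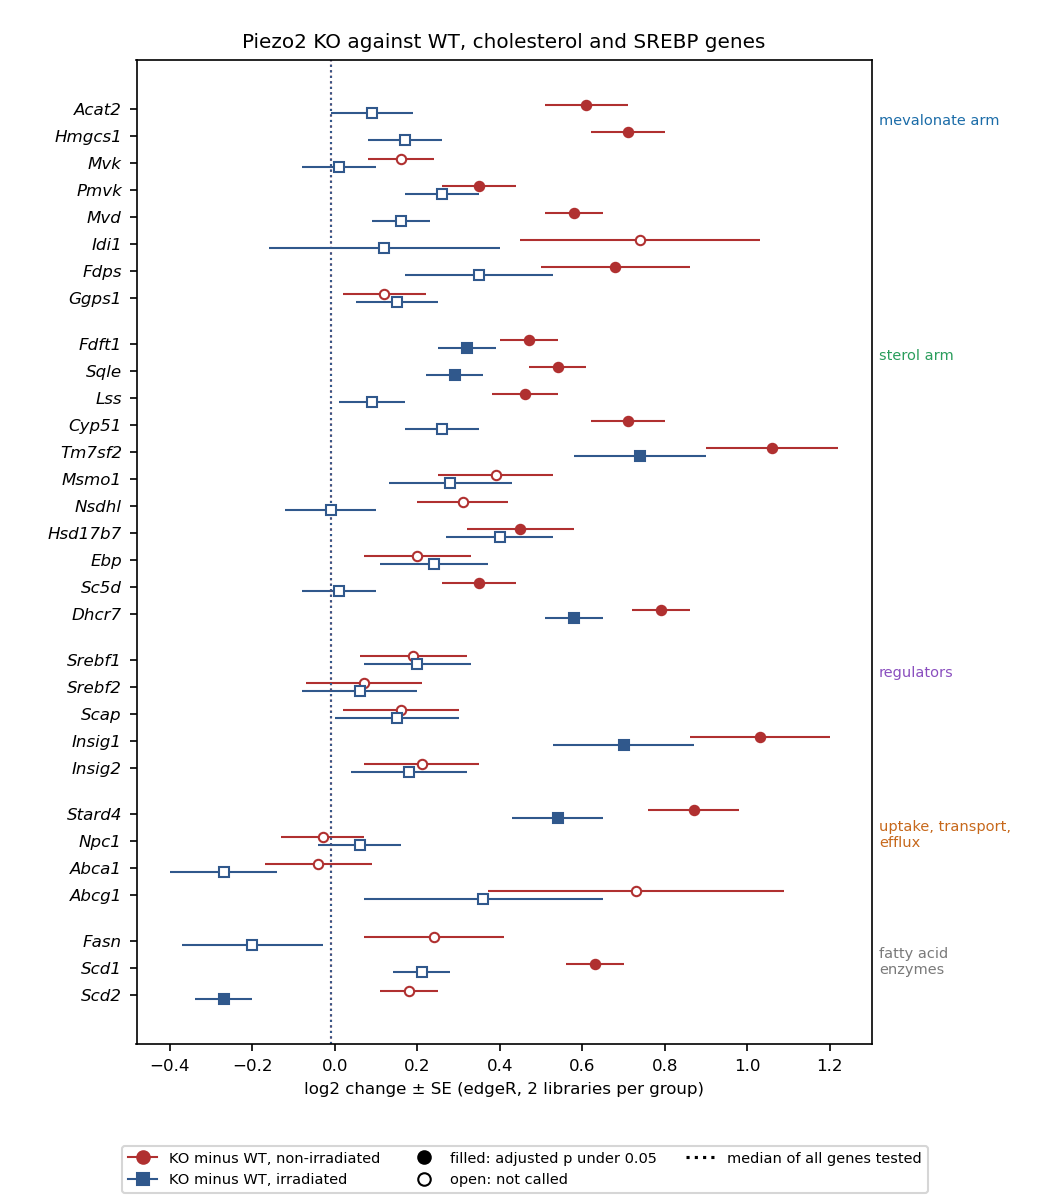
Log2 KO effect (KO minus WT, x axis, with its SE, 2 libraries per group) of each of the 31 members (rows, by arm), non-irradiated (red circles) and irradiated (blue squares). Filled points passed an edgeR adjusted p of 0.05 and dotted lines mark the medians of all genes, both at -0.01. Of the red points, 16 are filled and 29 lie above 0, while 7 blue points are filled.

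Irradiation lowered cholesterol genes in KO cells more often than it raised them. In KO cells 12 of the 31 members were lower after 30 Gy, where 18.6 percent of all genes were, and 1 was higher, the efflux pump Abcg1, where 21.1 percent were. The members' median log2 irradiation effect in KO was -0.28, beside 0.02 for all genes, and 24 of 31 values were negative. Both irradiated KO libraries were below both non-irradiated KO libraries in 19 members and above them in 4, where 29.8 and 38.5 percent of all genes showed this. In WT cells 7 members were lower, where 18.4 percent of all genes were, and 3 were higher (Acat2, Insig1 and Abcg1), where 20.4 percent were. The median in WT was 0.01, beside 0.03 for all genes. Both irradiated WT libraries were below both non-irradiated WT libraries in 10 members and above them in 13, where 29 and 39.5 percent of all genes showed this. The 7 lower genes in WT (Mvk, Pmvk, Sqle, Dhcr7, Srebf1, Scd1 and Scd2) were all among the 12 lower in KO. The share of all genes lower in both lines was not counted. The irradiation effects in KO and in WT share no library but come from the same fit. Deviations of same-numbered libraries also correlated across groups (0.564 to 0.611), so these 2 effects are not fully independent. With the block, 24 members were lower and 4 higher in KO, where 29.6 and 30.6 percent of all genes were. In WT, 13 were lower and 9 higher with the block, where 29.9 and 30.6 percent were.

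**Figure D2:**
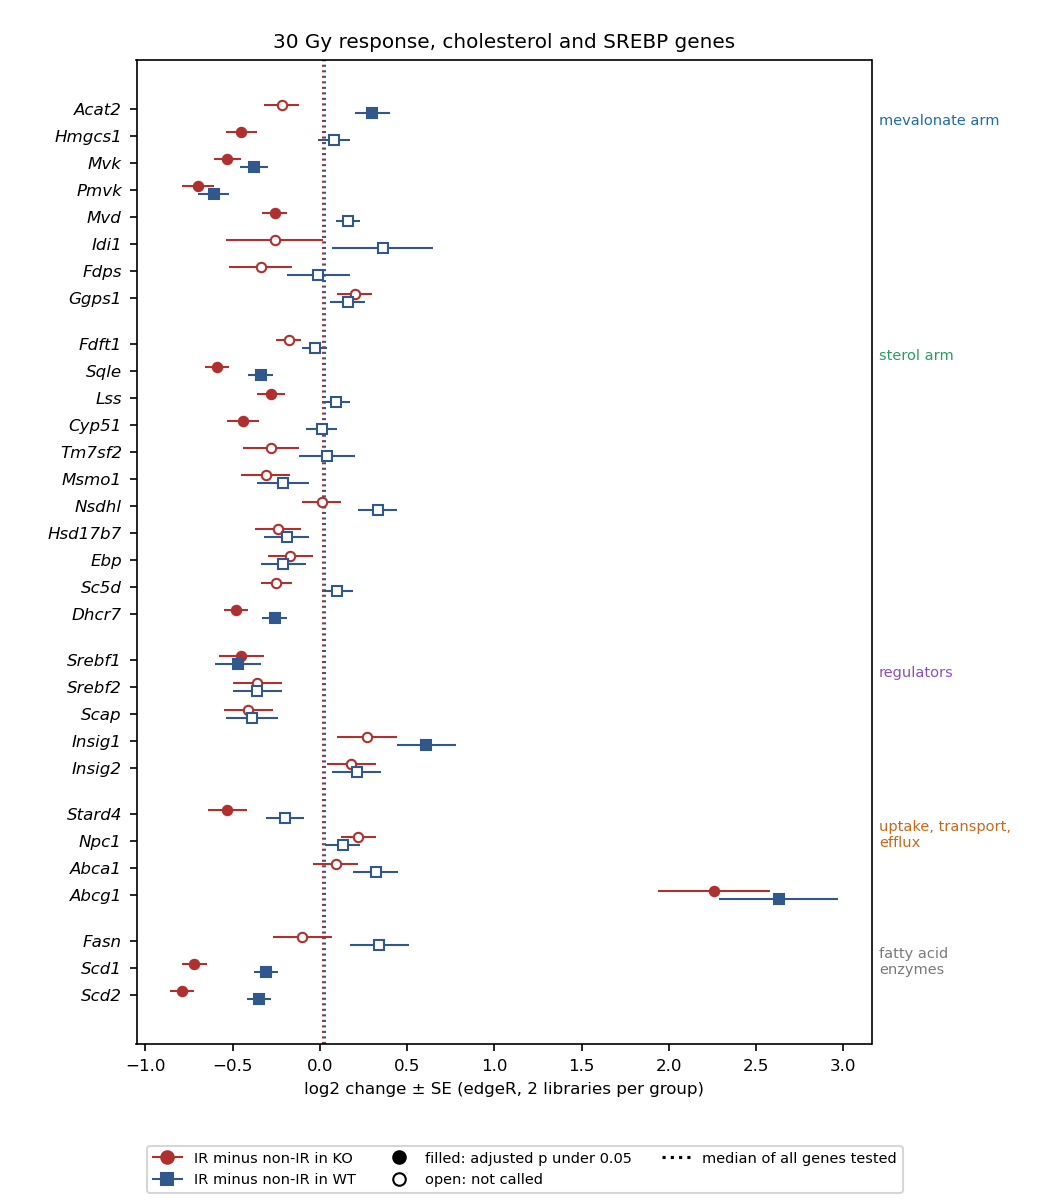
Log2 irradiation effect (irradiated minus non-irradiated, x axis, with its SE, 2 libraries per group) of each of the 31 members (rows, by arm) in KO (red circles) and WT (blue squares). Filled points passed an edgeR adjusted p of 0.05 and dotted lines mark the medians of all genes. Abcg1 stands far to the right in both lines, at 2.26 in KO and 2.63 in WT, and 12 filled KO points lie below 0.

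Across the 4 groups, the highest group mean was in non-irradiated KO for 23 of the 31 members, where 19.7 percent of all genes tested had theirs there. It was in irradiated KO for 5 members, in irradiated WT for 3 and in non-irradiated WT for 0, and the shares of all genes in these groups were not counted. The non-irradiated KO libraries enter both the KO effect without irradiation and the irradiation effect in KO, so these 2 comparisons are not independent of each other. Per kilobase of a gene's merged annotated exons, the mean level in non-irradiated KO ran from 0.165 reads per kilobase per M (RPKM) for Abcg1 to 414 RPKM for Scd2, with Hmgcs1 at 108 RPKM and Insig1 at 106 RPKM. Merged exons can be longer than the transcript made, so levels are only roughly comparable between genes.

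**Figure D3:**
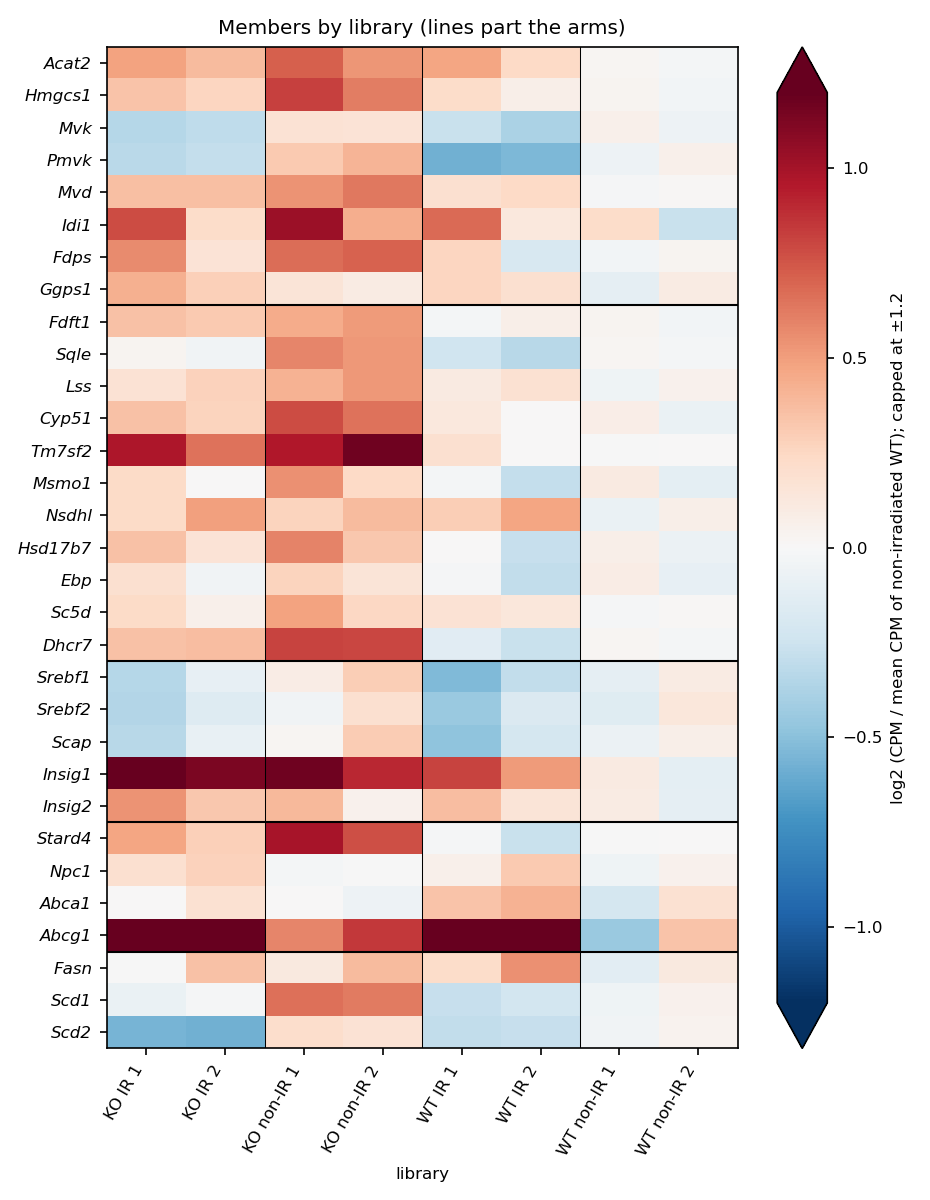
Level of each member (rows) in each library (columns, KO left of WT and irradiated left of non-irradiated within a line) as log2 of CPM over the mean CPM of non-irradiated WT, with colours capped at 1.2 in each direction. Horizontal lines part the arms. The 2 non-irradiated KO columns are red through the mevalonate and sterol arms, and Abcg1 is dark red in all 4 irradiated libraries.

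In the mevalonate arm all 8 log2 KO effects without irradiation were positive, with a median of 0.60, and 5 were called. Hmgcs1, which makes HMG-CoA, was at 381 and 360.1 CPM in irradiated KO and 530.0 and 460.3 CPM in non-irradiated KO, against 349.8 and 316 CPM in irradiated WT and 309 and 293 CPM in non-irradiated WT. Both non-irradiated KO libraries stood above every other library. The KO effect without irradiation was 0.71 ± 0.09 on the log2 scale (SE, edgeR adjusted p = 0.00225), and the gene fell in KO after irradiation (log2 change -0.45 ± 0.09, edgeR adjusted p = 0.00694). In irradiated cells the KO effect was 0.17 ± 0.09, which did not pass (edgeR adjusted p = 0.236), though it did with the replicate block (edgeR adjusted p = 0.000543). Acat2, which condenses acetyl-CoA to acetoacetyl-CoA, was at 149.6 and 139 CPM in irradiated KO and 176 and 154 CPM in non-irradiated KO, against 148 and 126 CPM in irradiated WT and 108 and 105 CPM in non-irradiated WT. The non-irradiated KO libraries were the highest 2 and the non-irradiated WT libraries the lowest 2, while the irradiated KO and WT libraries overlapped. Its KO effect without irradiation was 0.61 ± 0.10 (edgeR adjusted p = 0.00508), and it was the only member of this arm called higher after irradiation, by 0.30 ± 0.10 in WT (edgeR adjusted p = 0.0448).

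The kinases and the decarboxylase of the arm moved differently from each other. Mvk, mevalonate kinase, was at 45.4 and 46.7 CPM in irradiated KO and 64.9 and 64.6 CPM in non-irradiated KO, against 47.8 and 44.3 CPM in irradiated WT and 60.1 and 55.1 CPM in non-irradiated WT. Pmvk, phosphomevalonate kinase, was at 33.7 and 34.7 CPM in irradiated KO and 52.5 and 56 CPM in non-irradiated KO, against 28.3 and 29.2 CPM in irradiated WT and 40.5 and 44.2 CPM in non-irradiated WT. In both lines and for both kinases every irradiated library was below every non-irradiated library. The irradiation effect on Mvk was -0.53 ± 0.08 in KO and -0.38 ± 0.08 in WT (edgeR adjusted p = 0.00229 and 0.00951). On Pmvk it was -0.70 ± 0.09 in KO and -0.61 ± 0.09 in WT (edgeR adjusted p = 0.000654 and 0.00137). Pmvk was also higher in non-irradiated KO than in non-irradiated WT, by 0.35 ± 0.09. The Mvk KO effect of 0.16 ± 0.08 did not pass without the replicate block, and with it the edgeR adjusted p was 0.0486. Mvd, the diphosphomevalonate decarboxylase, was at 85.9 and 85.9 CPM in irradiated KO and 97.1 and 103 CPM in non-irradiated KO, against 76.4 and 78.5 CPM in irradiated WT and 66.2 and 67.2 CPM in non-irradiated WT. The 4 groups did not overlap for Mvd, and its KO effect was 0.58 ± 0.07 without irradiation (edgeR adjusted p = 0.00172). It fell in KO after irradiation (log2 change -0.26 ± 0.07, edgeR adjusted p = 0.0235). Its change in WT, 0.16 ± 0.07, did not pass without the replicate block, and with it the edgeR adjusted p was 0.0158.

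The isoprenoid end of the arm was less even. Fdps, farnesyl diphosphate synthase, was at 20.5 and 15.5 CPM in irradiated KO and 21.9 and 22.5 CPM in non-irradiated KO, against 16.5 and 12.1 CPM in irradiated WT and 13.5 and 14.1 CPM in non-irradiated WT. Without irradiation both KO libraries were above both WT libraries, by 0.68 ± 0.18 (edgeR adjusted p = 0.0366), and the irradiated groups overlapped. Idi1, the isopentenyl diphosphate isomerase, was at 181 and 119.6 CPM in non-irradiated KO against 103 and 73.6 CPM in non-irradiated WT, a log2 difference of 0.74 ± 0.29 that did not pass (edgeR adjusted p = 0.112). Replicate 1 was above replicate 2 for Idi1 in all 4 groups, and with the replicate block the edgeR adjusted p was 1.02e-16. Ggps1, geranylgeranyl diphosphate synthase, was called in no comparison and had group means between 25 and 32 CPM. In irradiated cells no gene of the arm was called between KO and WT by edgeR or DESeq2, 1 (Pmvk) was higher at an unadjusted p under 0.05, and 5 were higher with the replicate block.

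In the sterol arm both non-irradiated KO libraries were above both non-irradiated WT libraries for all 11 enzymes, and the median KO effect was 0.46. Dhcr7, the reductase that makes cholesterol from its dehydro precursor, was at 116 and 118 CPM in irradiated KO and 160.4 and 159 CPM in non-irradiated KO, against 83.1 and 75.9 CPM in irradiated WT and 92.7 and 90 CPM in non-irradiated WT. No 2 groups overlapped, and Dhcr7 was called in all 4 pairwise comparisons. Its KO effect was 0.79 ± 0.07 without irradiation and 0.58 ± 0.07 after it (edgeR adjusted p = 0.000416 and 0.00111), and its log2 change with irradiation was -0.48 ± 0.07 in KO and -0.26 ± 0.07 in WT (edgeR adjusted p = 0.00153 and 0.023). Sqle, squalene epoxidase, was also called in all 4, with 259 and 247 CPM in irradiated KO and 382 and 363 CPM in non-irradiated KO, against 215 and 202 CPM in irradiated WT and 258 and 249 CPM in non-irradiated WT. Irradiated KO and non-irradiated WT were at nearly the same Sqle level, with non-irradiated KO above and irradiated WT below them. Its KO effect was 0.54 ± 0.07 without irradiation and 0.29 ± 0.07 after it, and its irradiation effect was -0.59 ± 0.07 in KO and -0.34 ± 0.07 in WT (edgeR adjusted p between 0.000713 and 0.0251).

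Tm7sf2, a sterol reductase, had the largest KO effect of the 31 members in either state. It was at 16.7 and 13.4 CPM in irradiated KO and 16.6 and 19.1 CPM in non-irradiated KO, against 9.74 and 8.54 CPM in irradiated WT and 8.48 and 8.54 CPM in non-irradiated WT. Every KO library was above every WT library, by 1.06 ± 0.16 without irradiation and 0.74 ± 0.16 after it (edgeR adjusted p = 0.00389 and 0.0134). Fdft1, squalene synthase, was at 174 and 169.7 CPM in irradiated KO and 186 and 195 CPM in non-irradiated KO, against 135 and 143 CPM in irradiated WT and 139 and 134 CPM in non-irradiated WT. Here too every KO library was above every WT library, by 0.47 ± 0.07 without irradiation and 0.32 ± 0.07 after it (edgeR adjusted p = 0.00494 and 0.0182). The irradiation effect on Tm7sf2 and on Fdft1 was called in neither line without the replicate block. With the block both were called lower in KO (edgeR adjusted p = 0.0326 and 0.000813) and neither was called in WT.

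Lss and Cyp51, which make and demethylate lanosterol, were higher in non-irradiated KO and were lowered by irradiation there. Cyp51, the demethylase, was at 333 and 314 CPM in irradiated KO and 448 and 409.9 CPM in non-irradiated KO, against 285 and 262 CPM in irradiated WT and 275 and 247 CPM in non-irradiated WT. Lss, the synthase, was at 159 and 170.4 CPM in irradiated KO and 188 and 202 CPM in non-irradiated KO, against 152 and 160.4 CPM in irradiated WT and 136 and 146 CPM in non-irradiated WT. For both genes the 2 non-irradiated KO libraries were the highest of the 8. The KO effect without irradiation was 0.71 ± 0.09 for Cyp51 and 0.46 ± 0.08 for Lss (edgeR adjusted p = 0.00201 and 0.00717). The irradiation effect in KO was -0.44 ± 0.09 for Cyp51 and -0.28 ± 0.08 for Lss (edgeR adjusted p = 0.00689 and 0.0275), beside 0.01 ± 0.09 and 0.09 ± 0.08 in WT, which did not pass. Hsd17b7, a ketosteroid reductase of the pathway, was at 59.3 and 52.2 CPM in irradiated KO and 70.2 and 58.3 CPM in non-irradiated KO, against 46.7 and 38.5 CPM in irradiated WT and 48.7 and 44.3 CPM in non-irradiated WT. Sc5d, lathosterol desaturase, was at 93.8 and 83.2 CPM in irradiated KO and 111 and 94.8 CPM in non-irradiated KO, against 90 and 87.8 CPM in irradiated WT and 79.3 and 80.5 CPM in non-irradiated WT. Both were higher in non-irradiated KO than in non-irradiated WT, by 0.45 ± 0.13 and 0.35 ± 0.09 (edgeR adjusted p = 0.0494 and 0.0363). The other 3 enzymes, Msmo1, Nsdhl and Ebp, were called in no comparison and had log2 KO effects without irradiation of 0.39, 0.31 and 0.20. With the replicate block all 3 KO effects passed (edgeR adjusted p = 2.45e-10, 3.43e-06 and 0.0201).

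Among the regulators, Insig1, the endoplasmic reticulum protein that retains the SREBP complex and is itself an SREBP target, changed most. It was at 463 and 347 CPM in irradiated KO and 357 and 298 CPM in non-irradiated KO, against 278 and 226 CPM in irradiated WT and 171 and 147 CPM in non-irradiated WT. Every KO library was above every WT library, and the 2 irradiated WT libraries were above the 2 non-irradiated ones, while the KO groups overlapped. Its KO effect was 1.03 ± 0.17 without irradiation and 0.70 ± 0.17 after it (edgeR adjusted p = 0.00569 and 0.0208), and irradiation raised it in WT by 0.61 ± 0.17 (edgeR adjusted p = 0.0244). Its change in KO, 0.27 ± 0.17, did not pass (edgeR adjusted p = 0.237), though it did with the replicate block (edgeR adjusted p = 1.63e-06). Insig2, the related retention protein, was called in no comparison, with group means between 57.6 and 78 CPM, but was called higher in all 4 pairwise comparisons with the replicate block (edgeR adjusted p between 0.00292 and 0.00937). Srebf1, which encodes SREBP-1, was at 105 and 125 CPM in irradiated KO and 142 and 165 CPM in non-irradiated KO, against 92.8 and 109 CPM in irradiated WT and 124 and 143 CPM in non-irradiated WT. In each line the irradiated libraries were below the non-irradiated ones (log2 change -0.45 ± 0.13 in KO and -0.47 ± 0.13 in WT, edgeR adjusted p = 0.0275 and 0.0254), and the KO and WT libraries overlapped in either state. Srebf1 was nevertheless called higher in KO with the replicate block, without irradiation and after it (edgeR adjusted p = 0.000699 and 0.000453). Srebf2, the main activator of cholesterol synthesis, averaged 334 ± 31.1 CPM in irradiated KO and 419 ± 47.9 CPM in non-irradiated KO, against 322 ± 42.8 CPM in irradiated WT and 397 ± 54.8 CPM in non-irradiated WT (SD, n = 2 each). Its KO effects were 0.07 ± 0.14 and 0.06 ± 0.14, and its irradiation effect was -0.36 ± 0.14 in each line, none of which passed. Scap, the escort, had irradiation effects of -0.41 ± 0.14 in KO and -0.39 ± 0.15 in WT that did not pass (edgeR adjusted p = 0.0562 and 0.0653). With the replicate block both genes were called lower after irradiation in both lines, with edgeR adjusted p of at most 1.48e-05.

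**Figure D4:**
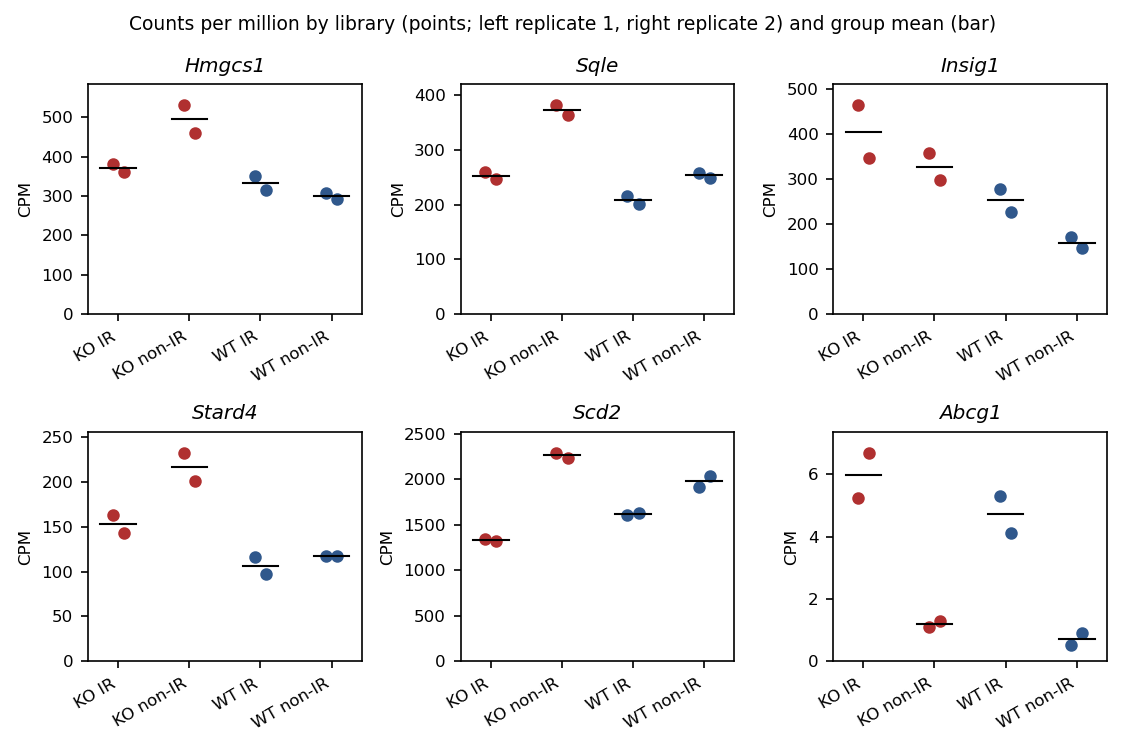
CPM (y axes, each from 0) of Hmgcs1, Sqle, Insig1, Stard4, Scd2 and Abcg1 in every library (points, replicate 1 left and replicate 2 right) with group means (bars), KO in red and WT in blue. Non-irradiated KO is the highest group for Hmgcs1, Sqle, Stard4 and Scd2, both irradiated groups are high for Abcg1, and the KO groups are above the WT groups for Insig1.

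In uptake, transport and efflux the genes went separate ways. Stard4, a soluble carrier that moves sterol between membranes and an SREBP target, was at 163 and 143 CPM in irradiated KO and 232 and 200.5 CPM in non-irradiated KO, against 116 and 97.2 CPM in irradiated WT and 117 and 117 CPM in non-irradiated WT. Every KO library was above every WT library, by 0.87 ± 0.11 without irradiation and 0.54 ± 0.11 after it (edgeR adjusted p = 0.00207 and 0.0118), and it fell in KO after irradiation (log2 change -0.53 ± 0.11, edgeR adjusted p = 0.00761). Abcg1, the pump that exports cholesterol to lipoprotein particles, was at 5.24 and 6.69 CPM in irradiated KO and 1.09 and 1.31 CPM in non-irradiated KO, against 5.31 and 4.12 CPM in irradiated WT and 0.534 and 0.92 CPM in non-irradiated WT. These values rest on 9 to 116 reads per library. All 4 irradiated libraries were above all 4 non-irradiated ones, a 4.78-fold rise in KO and a 6.21-fold rise in WT (log2 2.26 ± 0.32 and 2.63 ± 0.34, edgeR adjusted p = 0.00128 and 0.000854). No other member rose or fell by as much in any comparison. Abca1, the pump that loads cholesterol onto apolipoproteins, averaged 40.9 ± 3.66 CPM in irradiated KO and 37.5 ± 1.11 CPM in non-irradiated KO, against 49.9 ± 1.67 CPM in irradiated WT and 38.3 ± 7.49 CPM in non-irradiated WT (SD, n = 2 each). It was called in no comparison without the block, and with it was lower in irradiated KO than in irradiated WT (edgeR adjusted p = 0.00522) and higher after irradiation in WT (0.000741). Npc1, which passes sterol out of the late endosome, had group means between 48.8 and 58.2 CPM and was likewise not called, except as higher after irradiation in KO with the block (edgeR adjusted p = 0.00522).

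The 3 fatty acid enzymes under SREBP control had high counts, uncorrected for length. Scd2, a stearoyl-CoA desaturase, was at 1344 and 1327 CPM in irradiated KO and 2292 and 2233 CPM in non-irradiated KO, against 1609.6 and 1632 CPM in irradiated WT and 1916 and 2037 CPM in non-irradiated WT. No 2 groups overlapped, with KO the highest group without irradiation and the lowest after it. Scd2 fell after irradiation in both lines (log2 change -0.79 ± 0.07 in KO and -0.35 ± 0.07 in WT, edgeR adjusted p = 0.000107 and 0.00563), and it was lower in irradiated KO than in irradiated WT (log2 difference -0.27 ± 0.07, edgeR adjusted p = 0.0247). Its KO effect without irradiation, 0.18 ± 0.07, did not pass (edgeR adjusted p = 0.0971). Scd1, the related desaturase, was at 525 and 549 CPM in irradiated KO and 878 and 854 CPM in non-irradiated KO, against 459 and 476 CPM in irradiated WT and 535 and 576 CPM in non-irradiated WT. It was higher in non-irradiated KO than in non-irradiated WT by 0.63 ± 0.07 (edgeR adjusted p = 0.00135). It fell after irradiation in both lines (log2 change -0.72 ± 0.07 in KO and -0.31 ± 0.07 in WT, edgeR adjusted p = 0.000286 and 0.0139). Fasn, fatty acid synthase, was called in no comparison, with irradiation effects of -0.10 ± 0.17 in KO and 0.34 ± 0.17 in WT. With the replicate block Fasn was called in all 4 pairwise comparisons, lower after irradiation in KO (edgeR adjusted p = 0.0197) and higher in WT (7.82e-10), and higher in KO without irradiation (2.31e-06) and lower in KO after it (2.9e-05). The KO effect on Scd2 without irradiation also passed with the block (3.09e-06).

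Whether irradiation acted differently in KO and in WT was tested by the interaction, in which the log2 change with irradiation in WT is taken from that in KO. By edgeR 0 of 31 members were called in either direction, where 1.37 percent of all genes were called higher and 0.57 percent lower. At an unadjusted p under 0.05, 9 were lower and 0 higher, where 5.49 percent of all genes were lower at that level. The members' median was -0.32, beside -0.01 for all genes, and 27 of 31 values were negative. The 9 genes were Scd2, Mvd, Hmgcs1, Scd1, Acat2, Cyp51, Lss, Sc5d and Sqle, with values between -0.54 (Hmgcs1) and -0.25 (Sqle) and edgeR adjusted p between 0.0687 and 0.386. DESeq2 called 2 lower, Scd2 (DESeq2 adjusted p = 0.011) and Hmgcs1 (0.0253), where 0.848 percent of its genes were. With the replicate block edgeR called 15 lower, where 8.55 percent of all genes were, and DESeq2 14, where 5.23 percent were. The 15 were 4 genes of the mevalonate arm, 6 of the sterol arm, Insig1, Stard4 and all 3 fatty acid enzymes. The efflux pump Abcg1 had an interaction of -0.38 ± 0.46, with a wide error at its low counts.

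The median gene on some chromosomes differed between KO and WT, so each member's KO effect was set beside the median of all tested genes on its chromosome. Genes on chromosome 7 had a median log2 KO effect of 0.37 without irradiation and 0.38 after it, genes on chromosome 18 of 0.38 and 0.40, and genes on chromosome 16 of -0.32 and -0.36. Dhcr7 lies on chromosome 7, and Stard4 and Npc1 lie on chromosome 18, as does Piezo2. The KO effect of Dhcr7 was 0.79 without irradiation and 0.58 ± 0.07 after it, and that of Stard4 was 0.87 and 0.54 ± 0.11, so after irradiation the gap of Stard4 to its chromosome median was near its SE. The KO effect of Npc1 without irradiation (-0.03) was below its chromosome median. Leaving out members on these 3 chromosomes, 14 of 28 were higher in KO without irradiation, with a median of 0.42, where 10.4 percent of all genes were higher. After irradiation 4 of 28 (14.3 percent) were higher and 1 (3.57 percent) was lower, where 13.3 and 11.4 percent of all genes were. The share higher was thus near that of all genes. In both states the shares of all genes include chromosomes 7, 16 and 18, and the shares elsewhere were not counted. After irradiation 35.3, 39.5 and 45.0 percent of genes on these chromosomes were called in either direction. The called genes Insig1, Tm7sf2, Hmgcs1 and Cyp51 lie on chromosomes 5, 19, 13 and 5, with medians of 0.04, -0.05, -0.03 and 0.04.

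**Figure D5:**
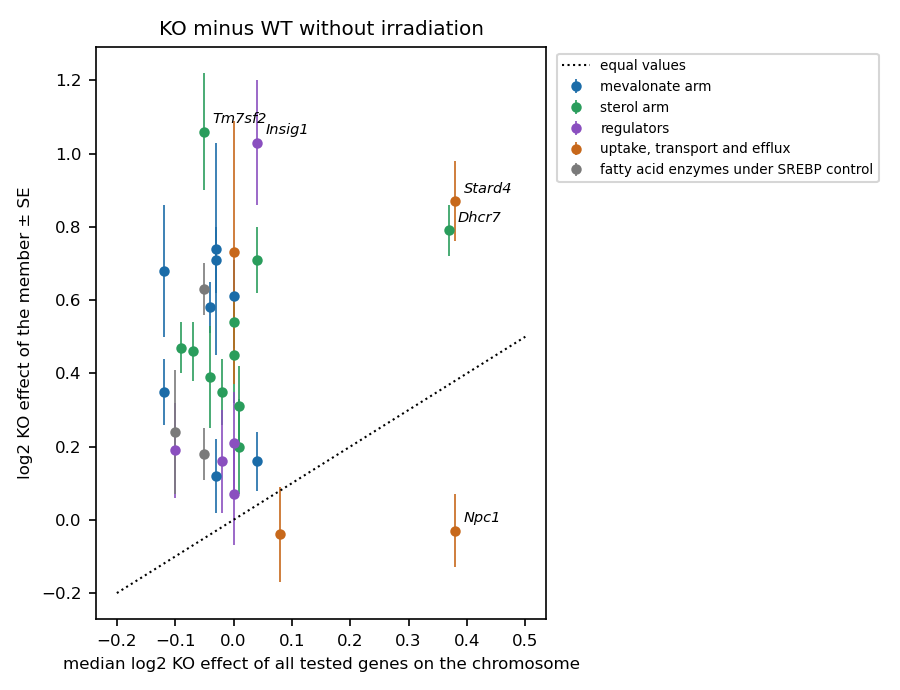
Log2 KO effect without irradiation of each member (y axis, with its SE, 2 libraries per group, coloured by arm) against the median log2 KO effect of all tested genes on its chromosome (x axis), with the dotted line marking equal values. Stard4, Dhcr7 and Npc1 lie on chromosomes with medians of 0.38 or 0.37, and the other members on chromosomes with medians between -0.12 and 0.08.

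Some calls were lost when a single library was left out. Without irradiation, Fdps and Pmvk were not called between KO and WT without any 1 of the 4 non-irradiated libraries (edgeR adjusted p 0.104 to 0.149 and 0.0535 to 0.14). Hsd17b7 was not called without any 1 of those 4 or either irradiated KO library (0.0559 to 0.22). Sc5d was lost without non-irradiated KO replicate 1 or any 1 of the 4 WT libraries (0.0534 to 0.164), and Lss without non-irradiated WT replicate 1 (0.0541). After irradiation, only Dhcr7 remained higher in KO without irradiated KO replicate 1, and likewise without irradiated WT replicate 2 (0.0632 to 0.194 for the other 5 genes), and Scd2 was not called without any 1 of the 4 irradiated libraries (0.11 to 0.158). Fdft1 and Sqle were also lost without irradiated KO replicate 2 or irradiated WT replicate 1 (0.0564 to 0.101). For the irradiation effect in KO, Mvd (0.0743 to 0.109), Srebf1 (0.146 and 0.153) and Lss (0.138 and 0.152) were lost without irradiated KO replicate 1 or non-irradiated KO replicate 2, and Mvd, Hmgcs1 (0.0505) and Stard4 (0.0572) without irradiated KO replicate 2. For the irradiation effect in WT, Acat2 was lost without any library other than irradiated WT replicate 2 (0.0528 to 0.282). Of the other WT calls, Insig1, Mvk, Dhcr7 and Sqle were lost without non-irradiated WT replicate 1, Scd1, Insig1, Srebf1 and Dhcr7 without its replicate 2, Scd1, Insig1 and Srebf1 without irradiated WT replicate 1, and Mvk, Dhcr7 and Sqle without its replicate 2 (0.0508 to 0.14). No called log2 change turned sign when a library was left out.

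Other genes of sterol and fatty acid metabolism, 44 of 46 listed genes that were in the table and tested, were counted by list. Without irradiation 14 of the 44 (31.8 percent) were higher in KO and 2 (4.55 percent) lower, where 10.4 and 9.49 percent of all genes were, with a median of 0.16. After irradiation 11 (25.0 percent) were higher and 2 lower, where 13.3 and 11.4 percent of all genes were, with a median of 0.13. Of 9 other fatty acid enzymes 5 were higher in non-irradiated KO, led by Acss2, an acetyl-CoA synthetase (0.91 ± 0.11), and the desaturase Fads2 (0.62 ± 0.10). Of 9 genes of sterol transport and storage 4 were higher, among them the lipoprotein receptor Scarb1 (0.47 ± 0.11), and 1, the sterol transporter Gramd1b (-0.60 ± 0.13), was lower. Of 6 LXR genes, Nr1h2, which encodes a subtype of the receptor and lies on chromosome 7, was higher by 0.72 ± 0.08 and Mylip, an LXR target, by 0.33 ± 0.09. In the isoprenoid branch Pggt1b, a prenyltransferase subunit on chromosome 18, was higher by 0.85 ± 0.15 and Rabggta, of another prenyltransferase, was lower (-0.34 ± 0.10). Of 7 genes of SREBP processing and sterol-regulated degradation, 0 were called without irradiation by edgeR or DESeq2, though 2 were at an unadjusted p under 0.05. With the replicate block Rnf145 and Mbtps1 were called higher in KO and Erlin1 lower, where 21.4 and 23.5 percent of all genes were. The edgeR adjusted p with the block were 1.25e-05, 0.00679 and 1.72e-05. After irradiation the ubiquitin ligase Rnf139 was higher in KO by 0.78 ± 0.09 and Erlin1, of the complex that brings sterol-regulated proteins to degradation, was lower (-0.38 ± 0.09).

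Of the 9 genes of intracellular sterol transport and storage, 6 were higher and 1 lower after irradiation in KO, where 21.1 and 18.6 percent of all genes were, and 5 were higher in WT, where 20.4 percent were. Lipa, the lysosomal acid lipase that frees cholesterol from its esters, was at 181 and 172 CPM in irradiated KO and 70.2 and 68.7 CPM in non-irradiated KO, against 85.1 and 88.8 CPM in irradiated WT and 51.2 and 49.1 CPM in non-irradiated WT. It rose by 1.31 ± 0.07 in KO and 0.73 ± 0.07 in WT, and the difference of 0.58 ± 0.10 was called (edgeR adjusted p = 0.0332). Npc2, the partner of Npc1, rose by 0.84 ± 0.10 in KO and 0.94 ± 0.10 in WT. Stard3, an endosomal sterol carrier, rose in KO by 0.87 ± 0.15, and its change of 0.35 ± 0.15 in WT did not pass. Abcg4, a pump related to Abcg1, rose by 1.84 ± 0.29 in KO and 2.75 ± 0.31 in WT. The fatty acid elongase Elovl6 was at 55.9 and 59 CPM in irradiated KO and 165 and 152 CPM in non-irradiated KO, against 60.5 and 56.5 CPM in irradiated WT and 104 and 107 CPM in non-irradiated WT. It fell in both lines (log2 change -1.49 ± 0.08 in KO and -0.91 ± 0.08 in WT), and the difference of -0.58 ± 0.11 was called (edgeR adjusted p = 0.0394). Lpin1, a phosphatidate phosphatase, rose by 0.50 ± 0.12 in KO and 1.14 ± 0.13 in WT. Acaca, acetyl-CoA carboxylase, fell in both lines (-0.64 ± 0.11 in KO and -0.58 ± 0.11 in WT), and Lpcat3, a phospholipid acyltransferase, fell in both lines (-0.76 ± 0.12 in KO and -0.87 ± 0.13 in WT). Mbtps2, the protease that makes the last cut of SREBP, fell in both lines (-0.70 ± 0.13 in KO and -0.81 ± 0.13 in WT). In the isoprenoid branch Rabggta fell in both lines (-0.77 ± 0.10 in KO and -0.84 ± 0.10 in WT). Of the genes of coenzyme Q synthesis, Pdss2 fell in both lines (-0.67 ± 0.18 in KO and -0.60 ± 0.18 in WT). Pdss1 was called lower in WT (-0.85 ± 0.23) and not in KO (-0.38 ± 0.23), and Coq2 likewise (-0.06 ± 0.09 in KO and -0.52 ± 0.09 in WT). Cyp27a1, a mitochondrial oxysterol enzyme, was at 5.9 and 5.54 CPM in irradiated KO and 3.92 and 3.32 CPM in non-irradiated KO, against 0.738 and 0.29 CPM in irradiated WT and 0.0593 and 0.0657 CPM in non-irradiated WT. Both non-irradiated WT libraries had 1 read each, on which the log2 KO effect on Cyp27a1 without irradiation, 5.68, rests. After irradiation Cyp27a1 was higher in KO by 3.51 ± 0.40 (edgeR adjusted p = 0.000797).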

How the data were processed

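The authors deposited raw counts, whole numbers of reads per Ensembl gene for 8 libraries. HISAT2, HISAT, HTSeq, DESeq2 and the mm10 build are named in the submitters' processing notes; their versions, the strand setting and the handling of reads mapping to several places are not given in the labels or files used here. Library totals were 10971004 to 19887180 counts, and 0 columns went unused. In R 4.3.3 with edgeR 4.0.16, filterByExpr (minimum count 10, minimum total 15) kept 14923 genes, TMM factors were 0.975 to 1.023, and all 8 libraries entered a quasi-likelihood fit with 1 coefficient per group (4 residual degrees of freedom, common dispersion 0.0199), tested two-sided with Benjamini-Hochberg adjustment over all genes tested. Log2 changes are from this fit, with SE from its F statistic, and "called" means an adjusted p under 0.05. CPM are per library total. DESeq2 1.42.0, RLE scaling, library totals, no filter, 4-library fits, leaving out each library and a replicate block were the alternatives. The script was tested on simulated data.

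The labels number the replicates but state no pairing. Same-numbered libraries were taken as paired in the block because their deviations correlated at 0.564 to 0.611 in all 6 pairs of groups. The main fit and its SE leave this pairing out (common dispersion 0.0199, against 0.00149 with the block). Genes not called by the main fit may therefore be called with the block. Members called in at least 1 comparison are given per library, and of each list of other genes at most 2 called genes per comparison with a mean of at least 5 CPM, except 1 gene not reported here. Members and lists were chosen with earlier results of these data known. Promoters are from RefSeq (GRCm38.p6). Counting error at a count of 0 allows up to 3 counts, 0.151 to 0.273 CPM.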

Additional observations from a re-analysis of the deposited data

Results flagged for a closer look

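For 5 members both irradiated KO libraries were below both non-irradiated KO libraries, and both irradiated WT libraries were above both non-irradiated WT libraries. The share of all genes with this pattern was not counted. Overlap was judged on CPM, without the TMM factors that enter the log2 changes. For Hmgcs1 in WT the nearest libraries were at 316 CPM (irradiated) and 309 CPM (non-irradiated), with TMM factors of 1.019 and 0.975. Its separation there thus depends on the scaling. The difference in log2 irradiation effect, KO less WT, was -0.52 ± 0.14 for Acat2 (-0.22 in KO, 0.30 in WT, edgeR adjusted p = 0.145), -0.54 ± 0.13 for Hmgcs1 (-0.45 in KO, 0.08 in WT, edgeR adjusted p = 0.115) and -0.37 ± 0.11 for Lss (-0.28 in KO, 0.09 in WT, edgeR adjusted p = 0.21). It was -0.41 ± 0.10 for Mvd (-0.26 in KO, 0.16 in WT, edgeR adjusted p = 0.113) and -0.35 ± 0.13 for Sc5d (-0.25 in KO, 0.10 in WT, edgeR adjusted p = 0.341). None of the 5 passed in the fit without the block, Hmgcs1 passed in DESeq2 (DESeq2 adjusted p = 0.0253), and all 5 passed with the replicate block (edgeR adjusted p between 1.43e-09 and 0.00119). These p-values come from the same libraries by which the 5 were picked, so they are not separate support. All 5 are enzymes of the mevalonate or sterol arm, as are 19 of the 31 members.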

How the results depend on the processing

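Of 46 called member changes, 46 kept their call with the replicate block and with DESeq2 plus the block (added, like the count without chromosomes 7, 16 and 18, after seeing the data), 45 with RLE factors, 45 with library totals, 42 with DESeq2, 43 without the filter and 37 when only the 4 libraries of a comparison were fitted, and 0 reversed. The causes of the moved counts below were not tested. For the KO effect without irradiation, the block gave 25 members higher, 3197 genes higher and 3504 lower of all tested, where 4 libraries gave 831 lower and DESeq2 with the block 2443. For the KO effect after irradiation, the block gave 18 members higher and 3 lower, 3761 genes higher and 3755 lower. DESeq2 with the block gave 12 and 2 members and 2594 genes lower, and no filter and the 4-library fit each gave 0 members lower. For irradiation in KO, the block gave 4 members higher and 24 lower and 4417 genes lower, and DESeq2 with the block 2 and 21 members. For irradiation in WT, members higher were 5 with library totals, 7 without the filter, 9 with the block and 7 with DESeq2 and the block, members lower were 13 with the block and 11 with DESeq2 and the block, and genes lower 4465 with the block. For the interaction, members lower were 2 by DESeq2, 3 without the filter, 15 with the block and 14 with DESeq2 and the block. Genes higher were 359, 1216 and 643, and genes lower 219, 1276 and 666, without the filter, with the block and with DESeq2 and the block. With a library left out, in fits that assume a lone library varies like the other groups, the KO effect without irradiation gave 11 to 15 members higher, 788 to 1409 genes higher and 676 to 1139 lower, and after irradiation 1 to 6 members higher, 0 to 1 lower, 1100 to 1887 genes higher and 792 to 1592 lower. Irradiation gave 9 to 13 members lower, 2072 to 3104 genes higher and 1832 to 2883 lower in KO, and 1 to 3 members higher, 4 to 8 lower, 2034 to 3014 genes higher and 1812 to 2754 lower in WT, and the interaction 99 to 124 genes higher and 18 to 31 lower. With 2 libraries per group, changes near the SE of a gene could not be called in the fit without the block. Some of them were called with it, such as the irradiation effect on Fasn in KO.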
